A study of Mus musculus with 4 samples.

Results

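The potassium channel genes of the mouse were taken as every gene whose symbol begins with *Kcn* in 3 deposited tables of m6A peaks, by the symbol alone. They held 251 of the 33556 peaks in the CCI list, in 65 of 12408 genes, and 249 of the 34406 peaks in the sham list, in 68 of 12907 genes. A further table, of peaks that the authors called different between CCI and sham, held 46 rows for 23 of these genes among its 4812 rows. In all, 71 *Kcn* names had a peak, of which 69 are genes of channel subunits and 2, *Kcnmb4os1* and *Kcnmb4os2*, are opposite-strand transcripts of a subunit gene. The RefSeq table of GRCm38.p6 lists 98 *Kcn* symbols, so 27 had no row under their own name in the tables used here. Among them were *Kcnh7*, *Kcnip4*, *Kcnt2* and the antisense RNA *Kcnq1ot1*. The rows named *Kcnq1*, counted here under that subunit gene, all lie within the RefSeq span of *Kcnq1ot1* and may belong to either RNA.

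Spinal cord RNA was taken from C57BL/6J mice that were 6 to 8 weeks old. In the CCI group, loose silk ligatures were tied around the sciatic nerve (chronic constriction injury, a model of neuropathic pain). The sham group had the same operation without ligatures, and both groups were sampled on day 7. In MeRIP-seq, fragmented poly(A) RNA is captured with an antibody against m6A (IP) and compared with the uncaptured fragments (input). Each group had 1 IP library and 1 input library, and the number of mice behind a library is not given in the sources used here, so CCI and sham could not be compared against replicate error, and no test between them was made. Each peak is described by the fold enrichment, the ratio of IP to input that the authors deposited. Read counts were not among the columns, so the depth of each library is unknown and no error can be put on a single fold enrichment. In bulk tissue, fewer cells of a type and less RNA per cell cannot be told apart.

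Potassium channels set the resting potential of neurons and glia, end the action potential and limit repetitive firing. Their pore subunits fall into voltage-gated, calcium- or sodium-activated, inwardly rectifying and tandem-pore (K2P) families, and accessory subunits alter their gating and their transport to the membrane. m6A is a methyl mark on adenosines of mRNA, placed mostly within the core letters GGAC, often near stop codons and along 3′-UTRs, and read by proteins that act on splicing, decay and translation.

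For the peaks at the 5′ end, RefSeq start sequences (GRCm38.p6) allowed a direct look at the RNA below a peak. The first 50 transcribed bases lay under a peak of the same gene for 12 *Kcn* genes. The letters GGAC were searched on the transcribed strand, and they contain every match of the longer GGACT. They stood in 2 of the 13 *Kcn* start windows under a CCI peak and in 2 of the 12 under a sham peak. Among all start windows under a peak of their own gene, the share with GGAC was 22.4% in CCI and 23.2% in sham, and among all 32851 windows it was 18.9%. The windows that held it, from *Kcnj3* (a G protein-gated inward rectifier, chr2, plus strand, 55435970-55435999 and 55435985-55436014) and *Kcnk12* (a K2P subunit, chr17, minus strand, 87797945-87797974), are shown 5′ to 3′ with GGAC in capitals, since they hold the core letters of the mark under a called peak:
Kcnj3, bases 1 to 30: ctccatccatccgGGACaagcaaagggcgg
Kcnj3, bases 16 to 45: acaagcaaagggcGGACatggaataggaga
Kcnk12, bases 21 to 50: ataggggaggaacaGGACtgctcgcacagc
The *Kcnk12* peak over this stretch was enriched 28.4-fold in sham and 64.1-fold in CCI. *Kcnj3* had a pair of overlapping rows over its start in each list, described below with its family. A match of letters does not place a methyl group, and windows without GGAC, such as that of *Kcnn3*, say only that these letters were not in these bases.

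*Kcn* genes carried more peaks per gene than the average gene of the lists. In CCI they had 3.86 peaks per gene against 2.70 over all genes, and in sham 3.66 against 2.67. *Kcna2*, which encodes an axonal low-threshold subunit, had 9 peaks in CCI and 8 in sham, *Kcnc1*, a subunit of fast-spiking neurons, also had 9 and 8, and its relative *Kcnc2* had 9 in each list. Only 1 peak was called for 11 of the 65 genes in CCI and for 12 of the 68 in sham. The number of peaks was equal in both lists for 28 genes.

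The strength of the *Kcn* peaks was close to that of the lists as a whole. Their median fold enrichment was 6.12 in CCI, where it was 5.73 over all peaks, and 6.54 in sham, where it was 5.70 over all peaks. The middle 50% of the *Kcn* peaks ran from 3.42 to 12.6 in CCI and from 3.56 to 12.8 in sham. A 5′-UTR peak of *Kcnj11* lay far above this range in both lists. The median exonic length of a *Kcn* peak was 271 bp in each list, against 211 bp for all CCI peaks and 239 bp for all sham peaks.

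The exon label was less common among *Kcn* peaks than over all peaks, and the 5′-UTR label more common. In CCI the 3′-UTR held 135 of the 251 (53.8%, 95% Wilson interval 47.6 to 59.9%, counting error only). Exons held 64 (25.5%, 20.5 to 31.2%), and the 5′-UTR held 52 (20.7%, 16.2 to 26.2%). Over all CCI peaks, the shares were 49.8%, 35.5% and 14.7%. The interval of the exon share thus lay below the value of all peaks and that of the 5′-UTR share above it, whereas the 3′-UTR interval held the value of all peaks. Sham gave the same order, with 135 of 249 peaks for the 3′-UTR (54.2%, 48.0 to 60.3%), 60 for exons (24.1%, 19.2 to 29.8%) and 54 for the 5′-UTR (21.7%, 17.0 to 27.2%), against 48.9%, 35.1% and 16.1% over all sham peaks. Peaks of 1 gene are not independent, and when each gene and region was counted a single time, some of these gaps narrowed or turned. The exon share was then 31.3% in CCI, where it was 32.7% over all genes, and 27.1% in sham, against 32.1%. The 3′-UTR share came out below that of all genes, at 42.5% against 47.5% in CCI and 45.1% against 46.6% in sham. The 5′-UTR share was the higher under that count too, at 26.1% against 19.9% in CCI and 27.8% against 21.2% in sham. A peak has 1 label only, and a long peak that reaches a 5′-UTR carries that label even where most of its bases are coding.

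**Figure D1:**
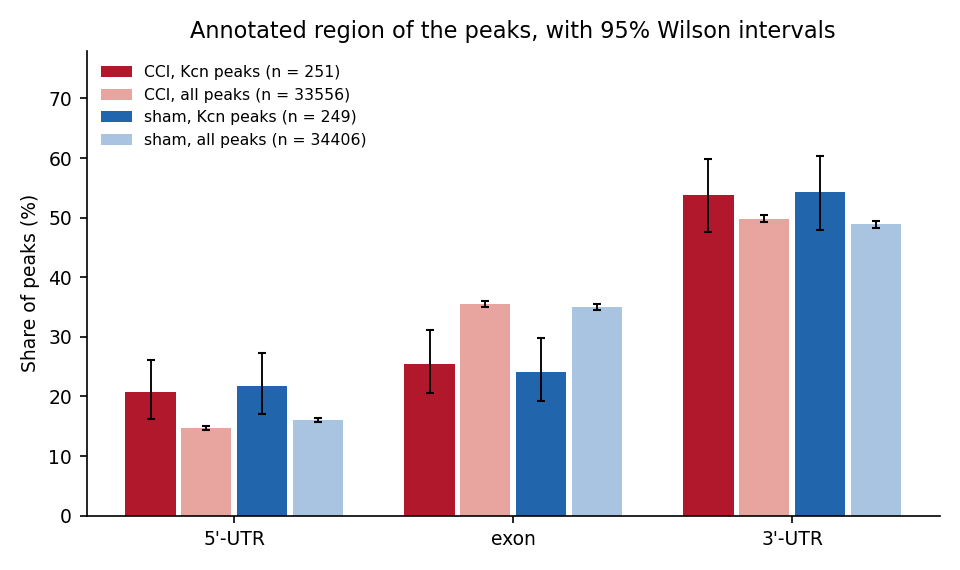
Share of peaks (%) annotated to 5′-UTR, exon and 3′-UTR for *Kcn* peaks (dark bars) and all peaks (light bars) in CCI (red) and sham (blue), with 95% Wilson intervals that cover counting error only. The *Kcn* bars stand lower than the bars of all peaks for exons, at 25.5% in CCI and 24.1% in sham, and higher for 5′-UTRs.

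Several 3′-UTR peaks on 1 transcript were common in these genes. Of the *Kcn* genes with a 3′-UTR peak that could be placed on the RefSeq gene, 31 of 56 in CCI (55.4%) and 32 of 59 in sham (54.2%) had at least a pair of them, against 43.2% and 41.4% over all genes. Such a peak lay a median of 1409 bp (CCI) or 1410 bp (sham) from the gene end, against 1317 bp and 1289 bp over all genes. *Kcna2* had its strongest 3′-UTR peak far from the end, 7017 bp away, at 33.4 in sham and 43.6 in CCI. In *Kcnc1* the peak at the very end of the gene was the one that differed most between the lists, 6.54 in sham and 22.4 in CCI.

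**Figure D2:**
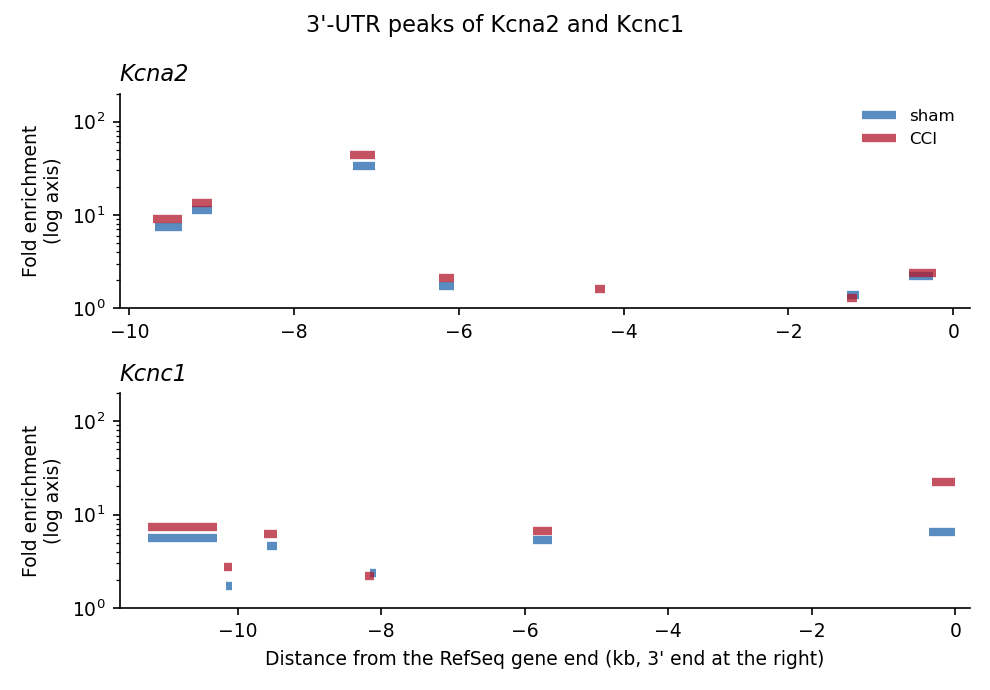
Position and strength of the unspliced 3′-UTR peaks of *Kcna2* and *Kcnc1*: the x axis is the distance from the RefSeq gene end (kb, 3′ end at the right), the y axis the fold enrichment on a log axis, and each bar spans 1 peak in sham (blue) or CCI (red). Most bars of one list have a bar of the other at the same place, and the end peak of *Kcnc1* shows the widest gap between the lists of that gene, from 6.54 to 22.4.

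Most *Kcn* peaks were found in both lists. A partner with at least 1 shared exonic base was present in sham for 91.6% of the CCI peaks (87.6 to 94.5%) and in CCI for 85.9% of the sham peaks (81.1 to 89.7%). This left 21 CCI and 35 sham peaks without a partner, 8.37% and 14.1% of the *Kcn* peaks, where the background over all peaks was 12.3% and 16.1%. Peaks without a partner were short and weakly called. Their median exonic length was 121 bp in each list, and their median log10 false discovery rate was -3.29 in CCI and -3.04 in sham, against -25.9 and -31.8 for the *Kcn* peaks with a partner. The same was seen over all genes, where peaks without a partner had medians of 120 bp in each list and -3.47 (CCI) and -3.27 (sham).

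CCI peaks of high fold enrichment with no partner included *Kcnmb4os2* at 12.5, a 5′-UTR peak of *Kcnh5* (an EAG channel) and the only peak of *Kcne4* (an accessory subunit) at 10.4. Among the sham peaks were a peak of *Kcnn4* at 15.1, a 5′-UTR peak of *Kcnj2* at 13.9 and the only peak of *Kcnh4* at 12.8. Despite these values they were weakly called. The log10 false discovery rate was -2.02 for *Kcne4* in CCI, and -4.23, -2.42 and -2.92 for *Kcnn4*, *Kcnj2* and *Kcnh4* in sham. *Kcne4*, *Kcnh1* and *Kcnmb4os2* were in the CCI list only, and *Kcnh4*, *Kcnh6*, *Kcnk6*, *Kcnk7*, *Kcnmb4* and *Kcnn4* in the sham list only. A missing row says that no peak was called, not that the mark was absent.

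To compare strength, peaks of the lists were joined where each was the other's best partner by Jaccard overlap (shared exonic bases over the bases of either peak), and the log2 ratio of CCI over sham fold enrichment was taken. This gave 206 *Kcn* pairs in 62 genes, of which 108 were higher and 98 lower in CCI. The lower share was 47.6%, against 47.8% over all pairs, the background for the counts by subfamily below. The median log2 ratio was 0.07, with the middle 50% of pairs from -0.37 to 0.43, and over all 27380 pairs of the lists it was 0.03. As a group, then, the *Kcn* pairs were shifted to neither side by more than a small part of their own spread. A log2 ratio of at least 1 in size, a 2-fold difference, was found in 38 *Kcn* pairs (18.4%, 13.7 to 24.3%), where the background over all pairs was 15.8%. Of these, 21 were higher in CCI (background 8.59%) and 17 lower (background 7.25%), and they lay in 29 genes. The interval holds the background, so the count is no result about potassium channels, and the single genes below are given as values. In 40 of the pairs, a peak also overlapped a further row of the other list, so that the ratio rests on which row was taken. In the remaining 166 pairs, 16 were at least 2-fold higher and 11 at least 2-fold lower in CCI, together 16.3% of them, against 15.3% of such pairs over all genes.

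**Figure D3:**
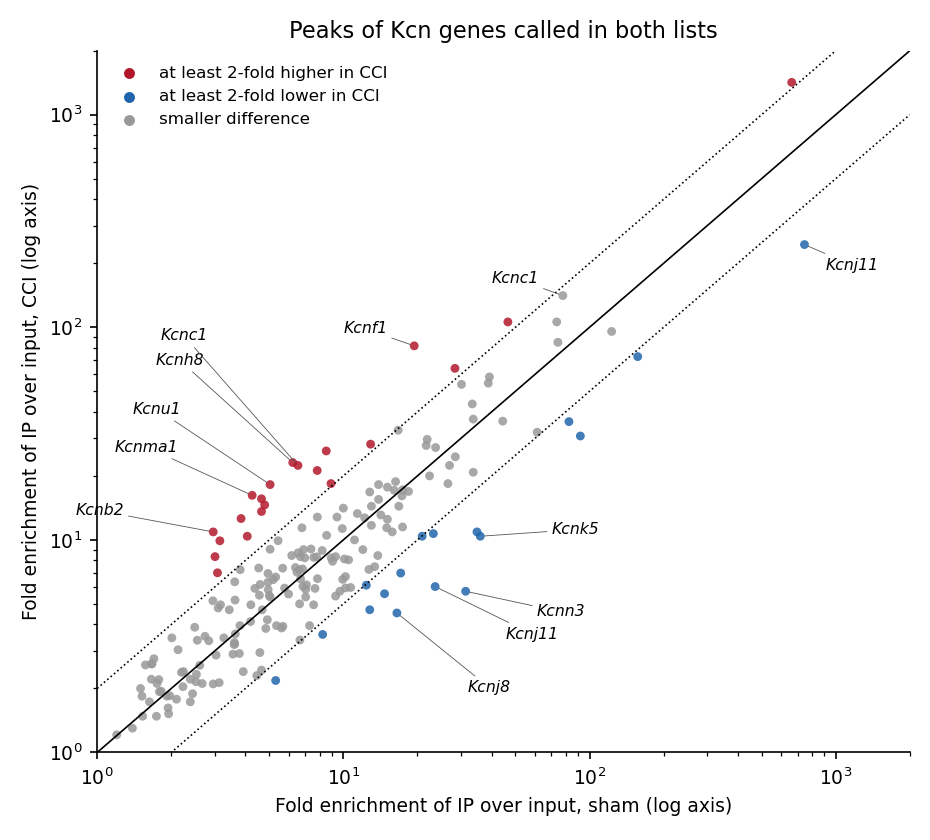
Fold enrichment in sham (x axis) and CCI (y axis), both on log axes, for the 206 paired peaks of *Kcn* genes; the solid line marks equal values and the dotted lines a 2-fold difference. The 21 red points are at least 2-fold higher in CCI, the 17 blue points at least 2-fold lower, and the named points include *Kcnf1* far above the line and *Kcnn3* and *Kcnj11* far below it.

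By region, 5′-UTR pairs were past the 2-fold difference most often. It was reached by 13 of 44 of them (29.5%, against 23.5% of all 5′-UTR pairs), by 20 of 115 3′-UTR pairs (17.4%, against 14.9%) and by 5 of 47 exon pairs (10.6%, against 13.8%). Changes of peak borders went along with larger ratios. Among pairs whose exonic lengths differed by 0.5 or more on the log2 scale, 13 of 45 were past the 2-fold difference, and among pairs of closer length 25 of 161. The same was seen over all pairs, at 24.4% and 13.1%. The part of the borders in any 1 ratio was not tested, and lengths are given below for most of the pairs past 2-fold whose borders differed.

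**Figure D4:**
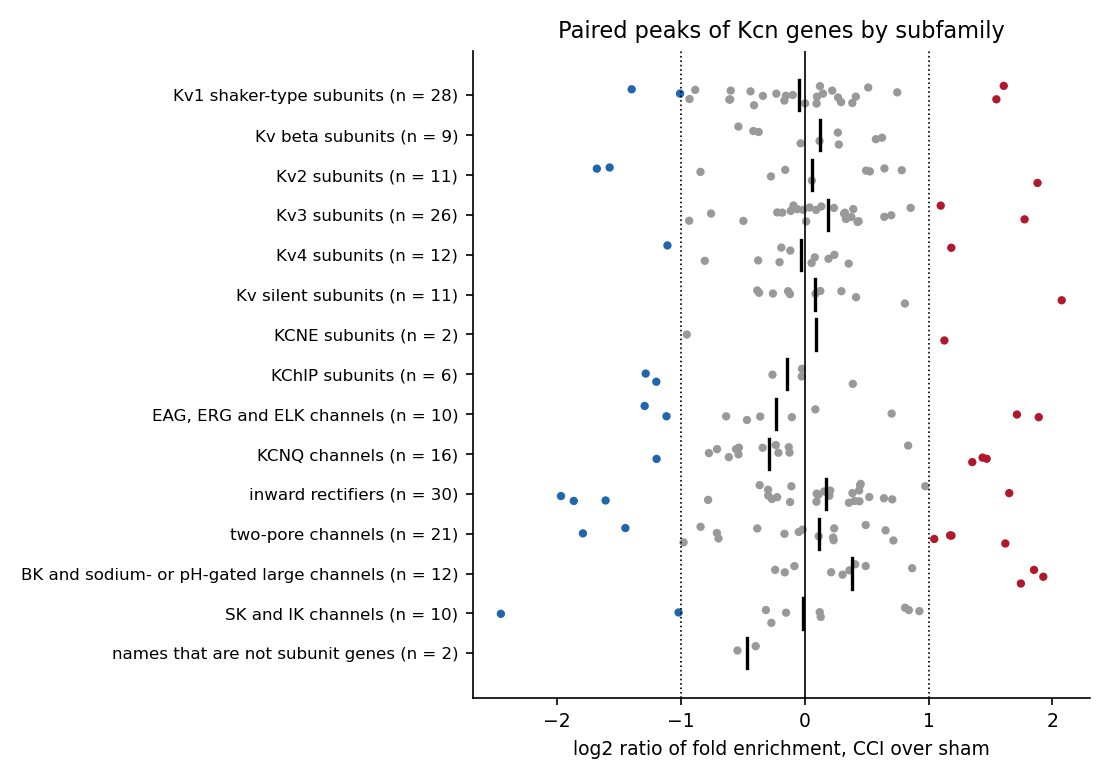
log2 ratio of fold enrichment, CCI over sham, for each paired peak (points), by subfamily with the number of pairs; black bars are medians, dotted lines mark a 2-fold difference, and points past it are red (higher in CCI) or blue (lower). The medians run from -0.47 for the names that are not subunit genes (2 pairs) and -0.29 for KCNQ channels to 0.38 for the large-conductance channels. Subfamilies such as the inward rectifiers hold points past both dotted lines.

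The Kv1 (shaker-type) genes encode voltage-gated subunits that open near threshold and hold back firing along axons and at nodes. Their 28 pairs were divided evenly, 14 higher and 14 lower in CCI, with a median log2 ratio of -0.05. In *Kcna1*, a 5′-UTR peak (chr6:126643055-126643892) was enriched 14.7-fold in sham and 5.58-fold in CCI, a log2 ratio of -1.40. The other 4 pairs of this gene lay between -0.23 and 0.10. *Kcna5* went the other way, with a pair of neighbouring 5′-UTR peaks at 4.79 and 4.65 in sham and at 14.6 and 13.6 in CCI. The first of these was 150 bp long in sham and 388 bp in CCI, where it also overlapped a sham row at 3.68, and the second was 90 bp and 150 bp long. Both were weakly called, with log10 false discovery rates of -4.34 and -3.87 in sham and -6.98 and -2.96 in CCI. *Kcna3*, a subunit also known from immune cells, had a 5′-UTR peak at 20.9 in sham and 10.4 in CCI, just past the 2-fold difference. That peak was weakly called too, with a log10 false discovery rate of -4.21 in sham and -2.02 in CCI. In *Kcna2*, all 8 pairs lay between -0.15 and 0.41, with 6 of them higher in CCI. *Kcna6* had 5 pairs from -0.93 to 0.51, all within the RefSeq span of *Gm33581*, and its exon pair fell on an exon of another gene identifier. *Kcna4* had 4 pairs from -0.61 to 0.75.

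The Kv beta genes encode cytoplasmic partners of the Kv1 subunits, and none of their 9 pairs was past the 2-fold difference. *Kcnab3* carried the strongest, a 3′-UTR peak at 39.2 in sham and 58.4 in CCI. For *Kcnab2* the 6 pairs ran from -0.54 to 0.62. *Kcnab1* had 1 pair, at 1.52 in sham and 1.84 in CCI, near the lower end of the values in the lists.

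*Kcnb2*, which encodes a Kv2 delayed rectifier of the cell body, had opposite values within 1 transcript. Its 3′-UTR peak at chr1:15711343-15711793 was at 91.8 in sham and 30.8 in CCI, with 451 exonic bases in sham and 870 in CCI, and the longer CCI peak also reached over a further, weaker sham row. A weaker 3′-UTR peak further downstream (chr1:15722401-15722551) was at 2.96 in sham and 10.9 in CCI, a log2 ratio of 1.88. Its log10 false discovery rate was only -4.39 in sham and -5.11 in CCI.

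The Kv3 subunits open at high voltages and close fast, which lets neurons fire at high rates. Of their 26 pairs, 17 were higher in CCI and 9 lower (background 47.8% lower), with a median of 0.19. In *Kcnc1*, 7 of 8 pairs were higher in CCI. The largest was the peak at the gene end (chr7:46438345-46438704), with a log2 ratio of 1.78. The 5′-UTR peak was at 77.9 over 1886 exonic bases in sham, where CCI had a pair of rows, at 141 over 1078 bases and at 4.38 over 660 bases. The 8 pairs of *Kcnc2* lay between -0.76 and 0.64, and the 5 of *Kcnc4* between -0.22 and 0.39.

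The Kv4 genes encode the A-type current of dendrites, and the KChIP genes the calcium-binding subunits that bring Kv4 channels to the surface. *Kcnd3* had differences in both directions, with a 3′-UTR peak at 157 in sham and 72.8 in CCI, a log2 ratio of -1.11, and an exon peak at 3.08 in sham and 7.00 in CCI (1.18). Its strong 5′-UTR peak was at 74.4 in sham and 85.0 in CCI, within the RefSeq span of *Kcnd3os*, which lies in the same place. *Kcnd2* had 3 pairs, from -0.38 to -0.19. Among the KChIP genes, 5 of 6 pairs were lower in CCI (background 47.8%). *Kcnip3* had a 3′-UTR peak at 5.31 in sham and 2.18 in CCI, with 627 and 209 exonic bases and further CCI rows at 3.65 and 1.69 under the same sham peak, while its other 3′-UTR pairs were at -0.02 each. *Kcnip1* had one at 8.24 in sham and 3.59 in CCI, of 151 bp in both lists.

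The silent Kv subunits form no channel alone and modify Kv2 channels. *Kcnf1* gave the highest log2 ratio of all *Kcn* pairs, 2.08, for its only peak (3′-UTR, chr12:17174494-17175302), which was at 19.4 in sham and 81.8 in CCI. The other 10 silent-subunit pairs were all short of the 2-fold difference. *Kcng4* had 3 pairs from 0.13 to 0.81, all higher in CCI, and *Kcns3* had 3 from -0.26 to -0.12, all lower. Of the KCNE accessory genes, *Kcne1l* had a 3′-UTR peak at 12.9 in sham and 28.2 in CCI and a 5′-UTR peak at 4.45 in sham and 2.30 in CCI. The 5′-UTR peak was weakly called, with a log10 false discovery rate of -3.18 in sham and -2.05 in CCI.

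KCNQ channels carry the M-current, which opens below threshold and damps repeated firing. Of their 16 pairs, 12 were lower in CCI (background 47.8%) and 4 higher, with a median of -0.29. That count includes the rows named *Kcnq1* discussed at the end of this family. *Kcnq3* was lower in CCI at all of its 5 pairs, from -1.20 to -0.13. Its strongest was an exon peak (chr15:66285835-66286224) at 82.5 in sham and 36.0 in CCI, which lies within the RefSeq span of *Gm27242* as well. *Kcnq5* was mixed, with 3′-UTR peaks at 3.01 and 7.83 in sham and 8.34 and 21.2 in CCI beside others at 18.4 and 7.57 in sham and 16.9 and 4.95 in CCI. The rows named *Kcnq1* all fell on an exon of another gene identifier and within the RefSeq span of *Kcnq1ot1*, the antisense RNA of that locus. The sources do not say if calling used strand, so these rows may belong to either RNA, and their 2 pairs (log2 ratios 1.35 and -0.77) are not read as values of *Kcnq1*.

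The EAG, ERG and ELK channels are voltage-gated relatives with slow or unusual gating. *Kcnh2*, the ERG channel best known from the heart, had 5 of 7 pairs lower in CCI. Its 5′-UTR peaks were at 17.1 and 23.2 in sham and at 6.98 and 10.7 in CCI, with log2 ratios of -1.29 and -1.12. Both were longer in sham, at 689 and 360 exonic bases against 360 and 151 in CCI, and the first also overlapped a CCI row at 2.12. All pairs but that at 23.2 in sham lay within the RefSeq span of *Gm15589*. *Kcnh8*, an ELK channel, had both pairs higher in CCI, an exon peak (chr17:52977875-52978085) at 6.23 in sham and 23.1 in CCI and the adjoining 3′-UTR peak at 3.84 in sham and 12.6 in CCI. *Kcnh5* had 1 pair, at 17.3 in sham and 16.1 in CCI.

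Inward rectifiers pass potassium inward more readily than outward and include G protein-gated, ATP-sensitive and glial channels. Their 30 pairs had a median of 0.17, with 19 higher and 11 lower in CCI (background 47.8% lower). *Kcnj11*, a pore gene of ATP-sensitive channels, was lower in CCI at all its 4 pairs. Its 5′-UTR peak (chr7:46099540-46100764) was at 747 in sham and 245 in CCI, a log2 ratio of -1.61. Its peak near the 3′ end (chr7:46097126-46097811) was at 23.6 in sham and 6.03 in CCI, a log2 ratio of -1.97, with 686 and 656 exonic bases. Its remaining pairs, at -0.30 and -0.12, were also below 0. *Kcnj8*, the other such pore gene, had a sham peak at 16.5 over 780 exonic bases, under which CCI had a pair of rows, at 52.4 over 331 bases and at 4.53 over 360 bases. The pairing took the second, and with the first the ratio would have the opposite sign, so no direction is read for this gene.

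The glial subunits gave small differences. *Kcnj10*, the main inward rectifier of astrocytes, had 4 pairs between 0.10 and 0.19, the strongest at 13.9 in sham over 1196 exonic bases and 15.5 in CCI over 568 bases, with a further CCI row at 10.7. *Kcnj16*, which joins it in mixed channels, had 4 between -0.27 and 0.64. Both genes thus stayed short of the 2-fold difference at every paired peak. *Kcnj2*, the classical strong rectifier, had 3 pairs higher in CCI, from 0.52 to 1.65, the last a 3′-UTR peak at 3.15 in sham and 9.90 in CCI. That last peak was weakly called, with a log10 false discovery rate of -2.79 in sham and -2.31 in CCI. So was the exon peak of the pair at 0.52, with -2.53 in sham and -2.29 in CCI.

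Among the G protein-gated genes, *Kcnj6* had a 3′-UTR peak at 16.7 in sham and 32.8 in CCI, a log2 ratio of 0.97, and *Kcnj9* had 3 pairs between -0.11 and 0.39. *Kcnj3* had rows of nearly the same bases with unlike values. In each list, 2 rows share 1559 exonic bases at its start, and their fold enrichments were 9.42 and 123 in sham and 12.8 and 95.6 in CCI. The log2 ratio was 0.44 for the first and -0.36 for the second, opposite in sign over nearly the same RNA. Overlapping rows of a *Kcn* gene within a list differed by a median of 0.04 (CCI, 10 cases) and 0.07 (sham, 11 cases) on the log2 scale. They differed by 2-fold or more in 1 of the CCI cases (against 3.97% of such cases over all genes) and in 2 of the sham cases (18.2%, against 4.27%), which were those of *Kcnj3* and, in sham, of *Kcnmb4os1* at 5.61 and 15.0.

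K2P channels are open at rest and carry the leak current. Their 21 pairs held 4 that were at least 2-fold higher (background 8.59%) and 2 at least 2-fold lower in CCI (background 7.25%). *Kcnk12* had a 3′-UTR peak at 8.52 in sham and 26.2 in CCI and its 5′-UTR peak at 28.4 and 64.1, while an exon peak was at 6.66 in sham over 715 bases and 3.38 in CCI over 298 bases. That sham exon peak also overlapped CCI rows at 26.2 and 4.17. *Kcnk2*, a channel opened by stretch and lipids, had a 5′-UTR peak at 46.6 in sham and 106 in CCI, and a neighbouring 5′-UTR peak at 33.7 in sham and 20.8 in CCI. The borders there differed widely, with 510 exonic bases in sham and 810 in CCI for the first, and that CCI peak overlapped both sham peaks. These pairs, and an exon pair at 17.4 in sham and 17.2 in CCI, lie within the RefSeq span of *A430027H14Rik*, on an exon of which the exon rows fall. *Kcnk13*, a K2P channel of microglia, had a 3′-UTR peak at 8.91 in sham and 18.4 in CCI. On the lower side were the exon peak of *Kcnk5* (chr14:20141669-20142266), at 36.0 in sham and 10.4 in CCI, and the 3′-UTR peak of *Kcnk4*, at 12.8 in sham over 267 bases and 4.69 in CCI over 148 bases. That *Kcnk4* peak had a log10 false discovery rate of -8.16 in sham and only -3.42 in CCI. The acid-sensitive leak channel genes differed less, with *Kcnk3* between -0.38 and 0.23 and *Kcnk9* at 1.57 in sham and 2.58 in CCI. The strongest peak of *Kcnk1* was at 38.8 in sham and 54.6 in CCI, and the only pair of *Kcnk10* was at 13.8 in sham and 8.44 in CCI.

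The calcium-, sodium- and pH-gated large-conductance genes had 9 of 12 pairs higher in CCI, with a median of 0.38 (background 47.8% lower). That count includes both of the overlapping *Kcnma1* pairs described next. *Kcnma1*, the pore of the BK channel that links calcium entry to repolarisation, had a 5′-UTR peak (chr14:24004738-24004917) at 4.26 in sham and 16.2 in CCI, a log2 ratio of 1.93. An overlapping row was at 4.65 in sham and 15.6 in CCI, so these are not separate observations. Both rows were weakly called, with log10 false discovery rates of -2.57 and -2.63 in sham and -3.77 and -3.61 in CCI. Its 4 pairs in the 3′-UTR were between -0.08 and 0.41. *Kcnu1*, known from sperm, had its only peak at 5.04 in sham and 18.2 in CCI, with log10 false discovery rates of -2.19 and -6.15. *Kcnt1*, a sodium-activated channel, had 5 pairs from -0.24 to 0.87. The BK beta gene *Kcnmb4* had a row pair in sham, both at 9.30 over 90 bases, and none in CCI. These rows share 89 bases, so they are not separate peaks, and they lie within the RefSeq span of *Kcnmb4os2*.

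The SK and IK channels respond to calcium alone and shape the after-hyperpolarisation. *Kcnn3* gave the lowest log2 ratio of all *Kcn* pairs, -2.45, for the 5′-UTR peak at its start (chr3:89520164-89520553), which was at 31.4 in sham over 390 exonic bases and 5.73 in CCI over 181 bases, with a further CCI row at 4.95 over 151 bases. The log10 false discovery rate of that start peak was -7.56 in sham and only -3.71 in CCI. The next peak of the gene, in its coding exon, was at 27.0 in sham and 22.4 in CCI. *Kcnn1* had a 3′-UTR peak at 12.4 in sham over 271 bases and 6.12 in CCI over 181 bases, and an exon peak at 5.04 in sham and 9.03 in CCI. The 4 pairs of *Kcnn2* were between -0.31 and 0.93.

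Few genes had all their pairs on 1 side. Of the 38 *Kcn* genes with 3 or more pairs, 8 had all of them on the same side (21.1%, background 18.4%). These were *Kcng4*, *Kcnj2* and *Kcnj10*, higher in CCI, and *Kcnd2*, *Kcnj11*, *Kcnn3*, *Kcnq3* and *Kcns3*, lower in CCI. Just past the 2-fold difference stood *Kcna3* (-1.01), *Kcnn1* (-1.02) and *Kcnk13* (1.05), and just short of it *Kcne1l* (-0.95), *Kcnj6* (0.97) and *Kcnk12* (-0.98).

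The authors' differential table named 23 of the 71 *Kcn* genes (32.4%), where the background over all genes of the lists was 25.3%. Its rows were overlapped by 53 *Kcn* peaks of the CCI list (21.1%, background 15.6%) and by 45 of the sham list (18.1%, background 14.3%). *Kcn* genes had more peaks per gene (3.86 against 2.70 in CCI), and these counts include overlapping rows of a gene. The part of either in these shares was not tested, so the shares are no result about potassium channels. Of the 46 rows, 23 were labelled 3′-UTR, 8 exon and 15 5′-UTR. *Kcna6* had 4 of them, with both of its regions listed in duplicate. The authors' table and the ratio of the deposited fold enrichments differed in the peaks they picked. Of the 39 *Kcn* pairs that overlapped a differential row, 10 were past the 2-fold difference, and 28 pairs past it lay outside the table. Among the latter were the pairs of *Kcnf1*, *Kcnn3*, *Kcnma1* and *Kcnh8*. The authors' table rests on their own comparison and not on this ratio. The same counts over all pairs are not given here, so these are no result about potassium channels. Within the table were the pairs of *Kcna1* (5′-UTR), *Kcnh2* (5′-UTR), *Kcnj11* (5′-UTR), *Kcnj8*, *Kcnk5* and *Kcnk12*.

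A list of 27 genes whose proteins bind, anchor or work beside potassium channels was set beside them. All 27 had a peak, and of their 84 pairs 5 were at least 2-fold higher (background 8.59%) and 5 at least 2-fold lower in CCI (background 7.25%), with a median of -0.04. *Dlg4*, which encodes the scaffold that clusters Kv1 channels, had a 3′-UTR peak at 19.1 in sham and 83.4 in CCI. This was the only 1 of its 4 pairs past the 2-fold difference, and their median log2 ratio was -0.09. *Cntn2*, an adhesion protein that holds Kv1 channels beside the node, was lower in CCI at 3 of 6 pairs by more than 2-fold. The largest of these falls was at a 3′-UTR peak, at 13.6 in sham and 3.35 in CCI. The smallest was at a 5′-UTR peak, at 17.3 in sham and 8.18 in CCI. *Hcn4*, a pacemaker channel, had an exon peak at 39.5 in sham and 5.73 in CCI, and *Lrrc38*, an accessory subunit of BK channels, a 3′-UTR peak at 27.9 in sham and 6.78 in CCI.

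The labelled tissue was checked by marker genes, where a peak needs both the RNA and the mark. All 9 neuronal markers, 7 of 8 caudal *Hox* genes, all 6 of oligodendrocytes and all 5 each of astrocytes and microglia had a peak in both lists, against 1 of 5 forebrain genes. Of 5 genes of sensory neurons of the dorsal root ganglion, 1 had a peak in CCI and 3 in sham. *Scn10a* and *Mrgprd* had a peak in sham only, and the reason for this difference between the lists was not tested. The RefSeq span of another gene covered 38 of the *Kcn* peaks in each list, in 15 genes.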

How the data were processed

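Fragmented poly(A) RNA of mouse spinal cord (labels: 50 μg total RNA) was sequenced as 1 IP and 1 input library for each of CCI and sham, 4 libraries in all. The submitters' processing notes name fastp, HISAT2, HOMER, ChIPseeker and the build GRCm38, whereas the methods of the paper name Cutadapt, bowtie, MACS2 and ChIPseeker, and the column names are those of exomePeak. Libraries were made strand-specific by dUTP, and the use of strand in calling is not stated. The 3 tables used were a peak list for each group and a table of differential peaks. Fold enrichment is the ratio of IP to input that the authors deposited for each peak. The log10 false discovery rate in the deposited lists was handled as a score, since some values are minus infinity. The largest false discovery rate was 0.0479 in CCI and 0.0468 in sham. The differential table also holds the authors' own fold changes and p-values of CCI against sham, which were not used. Only its positions, names and regions were.

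Peaks were compared by exonic blocks with at least 1 shared base. Peaks were paired across the lists where each had its greatest Jaccard overlap with the other. Shares have 95% Wilson intervals for counting error only. With 1 library per group there was no test. Coordinates are 1-based on GRCm38. RefSeq tables of GRCm38.p6 gave symbols, gene ends and start windows, and 69 of 71 *Kcn* names had every peak on the RefSeq gene of that name. The exceptions were a sham peak each of *Kcnn1* and *Kcnd1*. For 49 of the 71 names a start sequence was matched. A search for the motif across whole peaks and a comparison of proteins were not run.

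The rule for potassium channel genes used the symbol only, but these genes, their subfamilies, the partner genes and the markers were chosen with earlier results of these data known. The named genes are a set list of well-known channels, the 6 pairs with the highest and the 6 with the lowest ratio, the 6 strongest peaks and 4 strongest peaks without a partner per list and the 4 genes with the most peaks per list. Others were named after their values were seen, and some genes that the rule takes are counted but not reported here by name. Pairing was tested on simulated lists, whose peaks were well spaced and had partners of equal length. Further overlapping rows were not simulated, so the choice among such rows was not tested. The scripts ran in Python 3.11.15 with pandas 2.3.3, statsmodels 0.14.6, numpy 2.4.6 and matplotlib 3.10.9.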

Additional observations from a re-analysis of the deposited data

How the results depend on the processing

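Of 77 values recomputed under other settings, 66 stayed close to the value given above and 11 moved further. Counting each gene and region once, the 3′-UTR share was 42.5% in CCI and 45.1% in sham, the exon share in CCI 31.3% and the 5′-UTR share in sham 27.8%. With the strongest peak of each gene, the median fold enrichment was 15.5 in CCI and 13.9 in sham. Requiring an overlap of 50% of both peaks, 75.7% of the CCI and 76.3% of the sham peaks had a partner. Of the 186 *Kcn* pairs then left, 19 were at least 2-fold higher and 13 at least 2-fold lower. Over all pairs, 14.3% were past the 2-fold difference under that setting. At a log2 ratio of 0.5, 44 pairs were higher and 41 lower in CCI, and 41.5% of all pairs passed. Without pairs in the RefSeq span of another gene, 18 of 176 were at least 2-fold higher and 14 lower, and the share over all pairs is not given here. With pairs that overlapped no further row, the counts were 16 and 11 of 166, and over all genes 15.3% of such pairs were past 2-fold. For the pairs, the settings on the false discovery rate, overlapping and further rows and the RefSeq span were chosen after seeing the data, as was a minimum fold enrichment for the counts past 2-fold. No paired analysis was possible because with 1 IP and 1 input library per group no result comes from a test. Depth is unknown, so no single ratio has an error, and the fold enrichments of the lists rest on different inputs and borders.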
